A study of Mus musculus with 9 samples.

Results

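The major urinary protein (Mup) gene cluster of mouse chromosome 4 was examined for peaks of H3R2me2a, the asymmetrically dimethylated form of histone H3 arginine 2. Its members were all listed peaks that start in chr4:59900001-62300000 (mm10), and the 10.0 Mb on either side, chr4:49900001-59900000 and chr4:62300001-72300000, served as flanks. The window held 2096 of the 1548240 peaks in the 6 lists of the series, and the flanks held 6322 peaks on the left and 6239 on the right. The window was selected on the density of peaks there in these same lists, so its densities, heights and spacings are given as descriptions, with no test.

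The lists came from chromatin immunoprecipitation with sequencing (ChIP-seq) on cells labelled as mouse bone marrow and as leukemia cells in the design text, with an EPIGENTEK H3R2me2a antibody. The genotypes were Prmt6KO, lacking the enzyme PRMT6, Igf2bp2KO, lacking a reader protein of m6A-modified RNA, and WT, with 2 H3R2me2a libraries each. The cells of every genotype were cultured with m-IL3, m-IL6 and m-SCF, and 1 input library per genotype was not analysed here. No label ties the paired libraries to different animals or different cultures, and how much of the spread between them is technical was not tested. The WT libraries differed in peak density on chromosomes X and Y, as given below. A peak list measures neither the loss of a gene nor the RNA of marker genes, so genotype and cell type rest on the labels alone.

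Major urinary proteins are small lipocalins that liver and some glands secrete; they pass into urine and other fluids, where they carry volatile pheromones. Their genes lie in 1 cluster of recently duplicated, very similar copies interleaved with genes whose symbols begin Mup-ps, most of them pseudogenes. PRMT6 is the main enzyme known to deposit H3R2me2a, a mark described at gene starts and distal elements where it opposes the methylation of lysine 4 on the same histone tail. Bone marrow is not a tissue known for Mup expression.

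The likeness of the copies can be read from their promoters. RefSeq (GRCm38.p6) promoter windows, from 250 bases before to 50 bases after the gene start, were matched for 14 of the 22 Mup genes without the ps suffix. Those of Mup19, Mup10 and Mup17 are shown because each was overlapped, by at least 1 bp, by a peak in both Prmt6KO lists. That of Mup15 is shown because it alone held a WT peak, and that of Mup21 because it is a diverged copy with no peak in any list at its promoter. All 5 genes are on the minus strand, and the sequences run 5′ to 3′ on that strand. Capitals mark TATAA, the core of a TATA box. The windows are chr4:61782175-61782474 for Mup19, chr4:60582106-60582405 for Mup10, chr4:61595783-61596082 for Mup17, chr4:61439655-61439954 for Mup15 and chr4:62150792-62151091 for Mup21.
Mup19: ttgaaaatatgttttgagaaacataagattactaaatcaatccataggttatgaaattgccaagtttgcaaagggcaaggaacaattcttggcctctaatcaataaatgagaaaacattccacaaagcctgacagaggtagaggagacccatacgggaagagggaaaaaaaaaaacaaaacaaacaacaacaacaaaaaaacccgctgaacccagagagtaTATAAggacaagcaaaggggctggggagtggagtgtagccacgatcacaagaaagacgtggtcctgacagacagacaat
Mup10: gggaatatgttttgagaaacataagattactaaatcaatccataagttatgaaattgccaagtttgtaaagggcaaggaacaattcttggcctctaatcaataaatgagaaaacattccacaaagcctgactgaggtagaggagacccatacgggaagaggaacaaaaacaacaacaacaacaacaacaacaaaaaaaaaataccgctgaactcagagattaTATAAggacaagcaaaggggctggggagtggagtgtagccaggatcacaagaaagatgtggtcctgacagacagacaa
Mup17: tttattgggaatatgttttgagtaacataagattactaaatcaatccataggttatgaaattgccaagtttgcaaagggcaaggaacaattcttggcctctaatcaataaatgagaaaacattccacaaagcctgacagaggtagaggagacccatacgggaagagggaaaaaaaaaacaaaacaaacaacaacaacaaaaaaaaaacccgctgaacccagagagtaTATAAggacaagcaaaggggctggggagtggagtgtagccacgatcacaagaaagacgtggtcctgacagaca
Mup15: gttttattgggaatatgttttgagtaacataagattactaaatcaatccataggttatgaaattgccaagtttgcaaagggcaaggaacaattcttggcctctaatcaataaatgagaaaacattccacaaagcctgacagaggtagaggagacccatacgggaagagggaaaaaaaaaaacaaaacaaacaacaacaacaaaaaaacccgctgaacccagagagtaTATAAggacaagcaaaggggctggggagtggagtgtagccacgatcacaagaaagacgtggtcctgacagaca
Mup21: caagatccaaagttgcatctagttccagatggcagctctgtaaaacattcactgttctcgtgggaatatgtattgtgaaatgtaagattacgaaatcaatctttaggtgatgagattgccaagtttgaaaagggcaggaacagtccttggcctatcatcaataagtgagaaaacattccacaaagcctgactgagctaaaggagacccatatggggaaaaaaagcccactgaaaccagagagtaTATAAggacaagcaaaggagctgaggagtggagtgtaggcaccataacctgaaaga

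Aligned to the Mup19 promoter over the whole window, identity was 95.1% for Mup15, 94.5% for Mup17, 93.1% for Mup10 and 59.6% for Mup21. Each window follows its annotated start, and a shifted start lowers identity over the whole window, to 37.9% for Mup7. Over the stretch that both windows hold, Mup7 matched Mup19 at 162 of 167 aligned positions (97.0%). Measured in that way, the 8 other array windows ran between 94.02% for Mup10 and 98.98% for Mup15, and the border genes had 82.9% for Mup4, 83.2% for Mup6, 77.9% for Mup3 and 75.5% for Mup21. Exact repeats bear on where short reads can be placed. Of all 50-base words in the window, 99.2% in Mup15, 96.8% in Mup19, 85.3% in Mup17 and 5.98% in Mup10 also occurred in another promoter window of the table, against 0% in Mup21. At least 1 such shared word was found in 12 of the 14 Mup windows, against 18.1% of all 27025 promoter windows. Windows that overlap one another were not set aside from this share. Mup genes without a window and the rest of the genome were not searched. A low share thus does not show that reads can be placed uniquely. TATAA on the gene's strand began between 20 and 40 bases before the start in 9 of the 14 Mup windows, against 3.83% of all windows. It began 29 bases before the start in Mup19, 28 in Mup10, 23 in Mup17 and 23 in Mup15, but 6 bases before the annotated start in Mup21.

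The lists differed greatly in length and in the height they reached down to, and both bear on every value below. The Prmt6KO lists held 814517 and 431638 peaks, the Igf2bp2KO lists 1028 and 1261, and the WT lists 165304 and 134492. The lowest summit listed was 2 and 3 fragments in Prmt6KO, 8 and 7 in Igf2bp2KO, and 4 in both WT libraries. Within each library, fold enrichment was the same for every peak of a given height, to within 0.1%, so it holds 1 background level for the whole genome and none specific to the Mup cluster. That level was 0.736 and 1.21 fragments in Prmt6KO, against 1.46 and 1.44 in WT. A given height was therefore a higher fold enrichment in Prmt6KO. At 5 fragments it was 3.46 and 2.72 in Prmt6KO, against 2.44 and 2.46 in WT. WT replicate 1 stood apart in its peak density relative to autosomes, at 0.181 on chromosome X and 0.368 on chromosome Y, where WT replicate 2 had 1.197 and 0.00857. All results are therefore given by library. With 2 libraries against 2, an exact permutation test cannot go below p = 0.333.

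Peaks were denser in the Mup window than in its flanks in all 4 Prmt6KO and WT libraries, and the excess over the flanks was smaller in Prmt6KO. The window held 953 and 616 peaks in the Prmt6KO libraries, 0 and 0 in the Igf2bp2KO libraries, and 297 and 230 in the WT libraries. In Prmt6KO this was 397 peaks per Mb, against 320.0 in the flanks, in replicate 1, and 257 against 183 in replicate 2. In WT it was 124 peaks per Mb, against 74.2 in the flanks, in replicate 1, and 95.8 against 51.05 in replicate 2. Window over flanks came to 1.24 and 1.40 in Prmt6KO (mean 1.32 ± 0.116, SD, n = 2), and to 1.67 and 1.88 in WT (mean 1.77 ± 0.148, SD, n = 2).

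The genotypes did not overlap in this ratio. On the log2 scale the ratios were 0.31 and 0.49 in Prmt6KO, against 0.74 and 0.91 in WT, a difference of means of −0.42 with SDs of 0.127 in Prmt6KO and 0.121 in WT. The number of peaks in the window was higher in Prmt6KO while the ratio to the flanks was lower, and the Prmt6KO lists were the longer ones genome-wide. The window took 0.117% and 0.143% of the Prmt6KO lists, against 0.180% and 0.171% of the WT lists. With every list cut to the length of the shortest of these 4, the log2 ratios were 0.49 and 0.70 in Prmt6KO, against 0.79 and 0.91 in WT, and the difference was −0.26. The genotypes stayed apart there, with a smaller gap.

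The Mup window was set against 833 tiles of 2.4 Mb along the autosomes, each with its own 10.0 Mb flanks. A ratio as high as that of the window was uncommon in each Prmt6KO and WT library. A ratio of at least 1.2 in both libraries was reached by 0.72% of tiles in Prmt6KO and by 16.7% in WT, and in all 4 of these libraries by 0.48%. That bar lay close to the window's lower Prmt6KO ratio of 1.24 and far below its WT ratios of 1.67 and 1.88. The ratio of the Mup window was equalled or passed by 8 and 30 tiles in the Prmt6KO libraries, against 12 and 19 in the WT libraries. The tile ratios varied less in Prmt6KO, with SDs of 0.0867 and 0.231, against 0.288 and 0.377 in WT. A smaller ratio in Prmt6KO therefore stood at a similar rank among tiles.

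Along the window, the density was highest within the array of Mup genes and lower at both ends. In the end bins it ran between 0.383 and 1.48 times the flank mean over the Prmt6KO and WT libraries. The highest 100.0 kb bin began at 61700001 in both Prmt6KO libraries, at 2.25 and 3.01 times the flank mean, and this is the bin that holds Mup19. In WT replicate 2 the same bin was highest, at 5.29 times the flank mean. In WT replicate 1 the bins beginning at 61600001 and 61800001 were highest, both at 4.04 times. In the 100.0 kb just inside the right end of the window the libraries had 31 and 7 peaks in Prmt6KO, against 11 and 4 in WT, and just outside it 37 and 17 in Prmt6KO, against 7 and 3 in WT. At the left end, 37 and 13 peaks in Prmt6KO and 6 and 5 in WT lay just inside, with 33 and 10 in Prmt6KO and 4 and 0 in WT just outside.

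**Figure D1:**
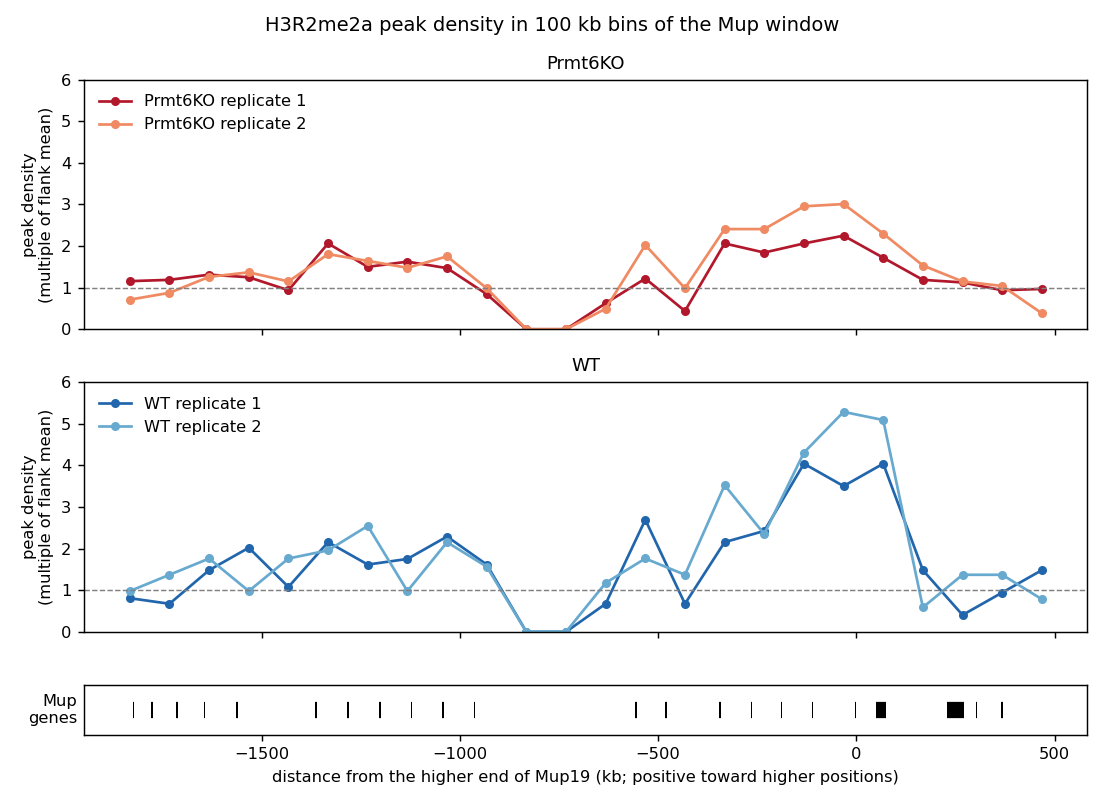
Peak density in 100 kb bins of the Mup window as a multiple of the mean flank density (y axis) against distance from the higher end of Mup19 in kb (x axis), with Prmt6KO libraries above, WT libraries below and the 22 Mup genes as bars at the foot. All 4 libraries fall to 0 in the bins of the peakless stretch and are highest near Mup19, at up to 3.01 times the flank mean in Prmt6KO and 5.29 times in WT.

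A stretch of 300.123 kb within the cluster, chr4:60849576-61149698, held no peak in any list and no Mup gene. Shorter peakless stretches of 52.8 kb (from 61341588) and 50.4 kb (from 60308414) followed, and the next was 11.6 kb. Whether these are assembly gaps or sequence where reads could not be placed was not tested. With the longest stretch left out of the window's length, the density ratio was 1.42 and 1.61 in Prmt6KO, against 1.91 and 2.15 in WT, and the log2 difference stayed at −0.42 because the same length was taken from every library.

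The excess lay in the array of repeated gene copies and not at its borders. The window was divided at the outer ends of the array and at the peakless stretch, a division chosen after the densities were seen. The right array, chr4:61149699-61883317, with 8 Mup genes from Mup13 to Mup5, held 386 and 301 peaks in Prmt6KO, against 148 and 127 in WT. That was 1.64 and 2.25 times flank density in Prmt6KO (mean 1.94 ± 0.425, SD, n = 2), against 2.72 and 3.39 times in WT (mean 3.05 ± 0.475, SD, n = 2). The left array, chr4:60041309-60849575, with 9 Mup genes from Mup7 to Mup22, had 1.45 and 1.46 times flank density in Prmt6KO, against 1.77 and 1.84 times in WT.

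The borders showed no such excess. The right border, chr4:61883318-62300000, holds Mup20, Mup3 and Mup21, and had 1.05 and 1.01 times flank density in Prmt6KO and 1.10 and 0.987 times in WT. The left border, with Mup4 and Mup6, had 1.17 and 0.852 times in Prmt6KO and 0.858 and 0.832 times in WT. Prmt6KO and WT overlapped in both borders and were apart in both parts of the array.

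Height mattered to the size of this gap. Counting peaks of at least 5 fragments in every library, a threshold above the lowest listed height of all 4, the right array had 2.70 and 2.47 times flank density in Prmt6KO (mean 2.59 ± 0.160, SD, n = 2), against 2.74 and 3.58 times in WT (mean 3.16 ± 0.593, SD, n = 2). The left array had 1.77 and 1.54 times in Prmt6KO, against 1.73 and 1.89 times in WT. At this height the genotypes overlapped in the left array, and Prmt6KO replicate 1 and WT replicate 1 differed by little in the right array.

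**Figure D2:**
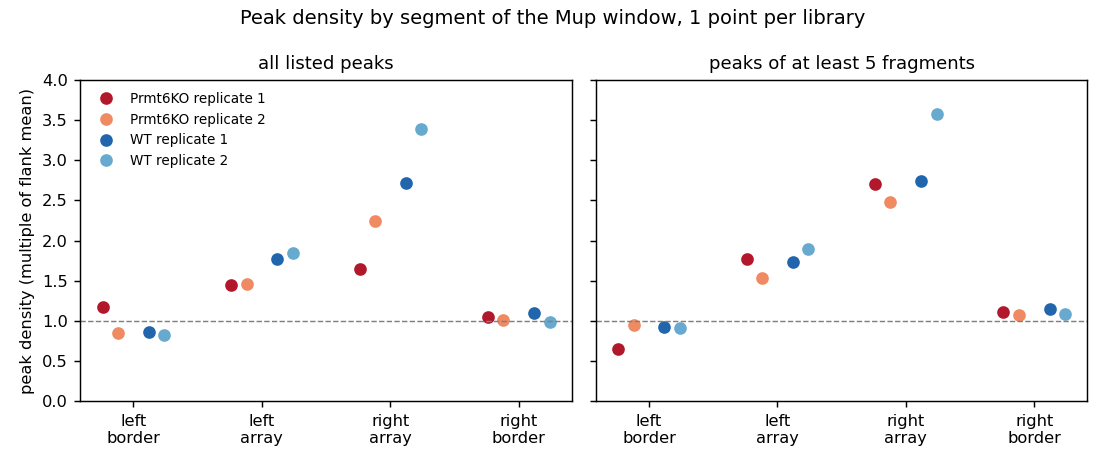
Peak density as a multiple of the mean flank density (y axis) in 4 segments of the Mup window (x axis), 1 point per library, for all listed peaks on the left and for peaks of at least 5 fragments on the right. Both borders sit between 0.652 and 1.17, and the right array is highest, at 1.64 and 2.25 in Prmt6KO and 2.72 and 3.39 in WT for all listed peaks.

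Summits in the window were low and about as high as in the flanks. Height was read as the number of overlapping sequenced fragments at the summit, which the authors' pileup values give as whole numbers in the Prmt6KO and WT lists. The median was 3 and 5 fragments in Prmt6KO, against 6 and 6 in WT, where the flank medians were 3 and 4 in Prmt6KO and 6 and 6 in WT. The mean was 3.20 and 4.72 fragments in Prmt6KO, against 5.96 and 5.96 in WT, and in the flanks 3.15 and 4.60 in Prmt6KO and 5.88 and 5.74 in WT. With lists of equal length the medians were 4.5 and 6 fragments in Prmt6KO, against 6 and 6 in WT, and with peaks of at least 5 fragments they were 5 and 5 in Prmt6KO, against 6 and 6 in WT. The gap in medians was thus smaller where the lists were cut alike, and Prmt6KO replicate 2 then equalled WT at equal length. No summit in the window passed 8 and 9 fragments in the Prmt6KO libraries or 10 and 11 in the WT libraries.

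Few window peaks passed the authors' q-value at 0.05. There were 7 and 9 in Prmt6KO and 3 and 8 in WT, with 32 and 43 in the Prmt6KO flanks and 37 and 16 in the WT flanks. The lowest height that reached this q was 7 and 8 fragments in Prmt6KO, 22 and 20 in Igf2bp2KO, and 9 in both WT libraries. The WT libraries disagreed among these peaks. At 9 or more fragments WT replicate 1 had 3 window peaks and 37 flank peaks, a density ratio of 0.676, while WT replicate 2 had 8 and 16, a ratio of 4.17.

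At heights shared by the lists, the ratio of window to flank density drew closer between the genotypes. Equal heights were not equal fold enrichments, which were higher in Prmt6KO at a given height. For peaks of at least 5 fragments it was 1.65 and 1.52 in Prmt6KO, against 1.67 and 1.97 in WT. For peaks of at least 6 fragments it was 1.36 and 1.86 in Prmt6KO, against 1.80 and 2.21 in WT. For peaks of at least 7 fragments it was 1.82 and 1.59 in Prmt6KO, against 1.93 and 1.98 in WT. The genotypes overlapped at 6 fragments and lay apart, with Prmt6KO lower, at 5 and 7 fragments. In Prmt6KO replicate 1 the ratio at its own floor of 2 fragments was 1.24, the lowest of the 4 Prmt6KO and WT libraries at their floors.

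**Figure D3:**
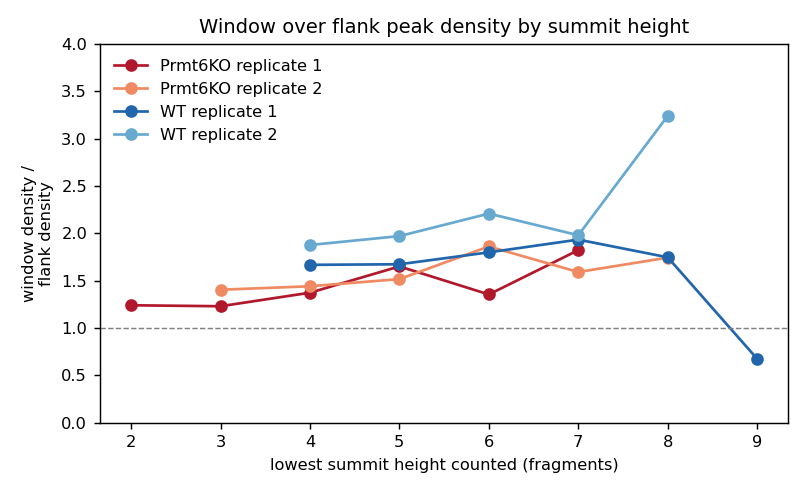
Window peak density over flank peak density (y axis) by the lowest summit height counted in fragments (x axis), 1 line per library, shown where the flanks hold at least 20 peaks. At 5 fragments the Prmt6KO libraries are at 1.65 and 1.52 and the WT libraries at 1.67 and 1.97, and WT replicate 1 drops to 0.676 at 9 fragments.

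Peaks in the window were closer together and somewhat wider than in the flanks. The median distance between neighbouring summits was 1501.5 and 2065 bp in Prmt6KO, against 3624 and 5103 bp in WT. In the flanks it was 2308 and 3682.5 bp in Prmt6KO, against 8609.5 and 12300 bp in WT. Relative to its own flanks, the log2 spacing was −0.62 and −0.83 in Prmt6KO, against −1.25 and −1.27 in WT. This gap depended on the height counted. For peaks of at least 5 fragments the log2 spacing was −1.32 and −1.16 in Prmt6KO, against −1.27 and −1.36 in WT, and the genotypes overlapped. At fold enrichment of at least 4 and at q of 0.05 or below, the difference of Prmt6KO minus WT, 0.53 over all listed peaks, turned to −0.31 and −1.10. Neighbours within 1 kb made up 31.2% and 21.95% of distances in Prmt6KO, against 16.2% and 11.8% in WT. In the flanks they made up 19.02% and 11.9% in Prmt6KO, against 5.67% and 4.61% in WT. Random placement (exponential distances) of the same mean would give 32.7% and 23.1% in the Prmt6KO window, against 11.7% and 9.31% in WT. The window shares found lay below these in Prmt6KO and above them in WT. In the flanks it would give 27.4% and 16.7% in Prmt6KO, against 7.15% and 5.02% in WT, above the shares found. The window was selected on its density, so closer spacing there is no separate result.

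Mean peak width was 302 and 316 bp in Prmt6KO, against 302 and 288 bp in WT. In the flanks it was 276 and 272 bp in Prmt6KO, against 262 and 267 bp in WT. The window was thus the wider of the pair in each of these 4 libraries. Peaks covered 11.98% and 8.12% of the window's bases in Prmt6KO, against 3.74% and 2.76% in WT. They covered 8.85% and 4.98% of the flanks in Prmt6KO, against 1.94% and 1.37% in WT.

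Peaks recurred between libraries more often in the window than in the flanks. Of the Prmt6KO window peaks, 217 of 953 (22.8%, Wilson 95% interval 20.2 to 25.5) and 215 of 616 (34.9%, 31.2 to 38.7) overlapped a peak of the other Prmt6KO list by at least 1 bp. Of the WT window peaks, 42 of 297 (14.1%, 10.6 to 18.6) and 43 of 230 (18.7%, 14.2 to 24.2) overlapped the other WT list. In the flanks these shares were 12.03% and 20.9% in Prmt6KO, against 4.11% and 5.97% in WT. The intervals cover counting error only, and denser lists overlap more at any given position.

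Recurrence was greatest in the right array, the segment densest in peaks, and was not adjusted for density. There 32.6% and 41.9% of Prmt6KO peaks overlapped the other Prmt6KO list, against 20.3% and 23.6% in WT. In the right border the shares were 10.7% and 19.5% in Prmt6KO, against 0% and 0% in WT. Across genotypes, 37.7% and 33.7% of WT replicate 1 window peaks overlapped the Prmt6KO lists, against 19.2% and 13.3% of its flank peaks. No adjustment was made for the greater share of the window than of the flanks that Prmt6KO peaks cover.

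Of the 42 WT replicate 1 peaks found in both WT lists, 11 overlapped a peak in both Prmt6KO lists, 17 in 1 of them and 14 in neither. Among the 11, 9 lay in the right array, which held 30 of the 42. One of them, chr4:61840352-61840748 within Mup5, had 4 and 9 fragments in Prmt6KO and 8 and 7 in WT. Another, chr4:61719637-61719836, lay 17199 bp from Mup-ps15 and had 8 and 5 fragments in Prmt6KO and 5 and 6 in WT.

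**Figure D4:**
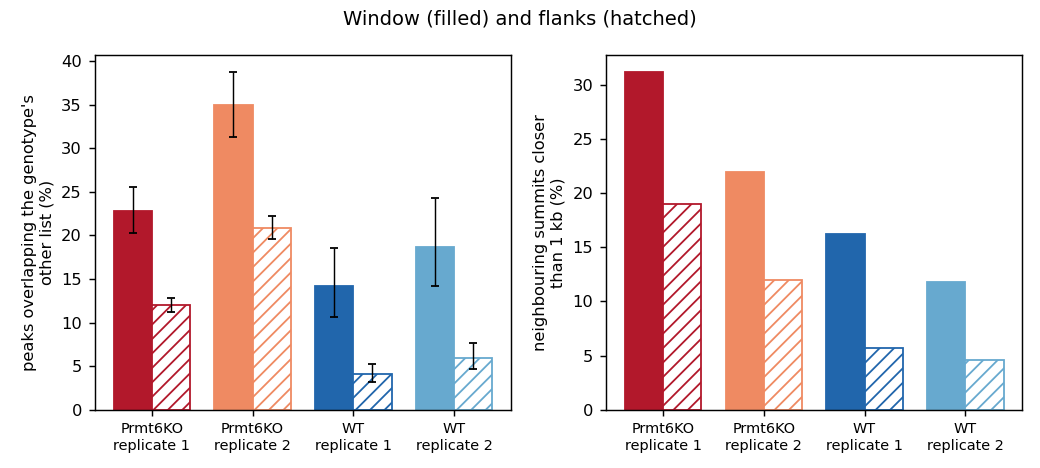
Left, percent of peaks that overlap the other list of the same genotype (y axis; error bars are Wilson 95% intervals); right, percent of neighbouring summits within 1 kb (y axis), for each library (x axis) in the window (filled) and in the flanks (hatched). The window is above the flanks in all 4 libraries in both panels, at 22.8% and 34.9% against 12.03% and 20.9% for overlap in Prmt6KO.

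Over all listed peaks, more Mup genes held peaks in Prmt6KO than in WT, and the order turned at a shared height. The shares of all genes turned in the same way, so this was not particular to Mup genes. RefSeq places 44 genes with a Mup symbol in the window, 22 of them without the ps suffix. A peak lay in the gene or within 1 kb of it in both Prmt6KO libraries for 34 of the 44, against 57.2% of all genes. The same held in both WT libraries for 16 of 44, against 24.6% of all genes, and in both Igf2bp2KO libraries for 0 of 44, against 0.254%. Among the 22, the counts were 20 in Prmt6KO, against 73% of protein-coding genes, and 5 in WT, against 38.6%, while Igf2bp2KO had 0, against 0.356%. Counting peaks of at least 5 fragments, the number of the 44 was 10 in Prmt6KO, against 21.3% of all genes, and 16 in WT, against 23.4%. Mup genes are short, with a median length of 4009.5 bp, and the genes they are set against were not matched for length.

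At gene ends the Mup genes stood above the share of all genes. A peak within 1 kb of either end in both libraries was found for 28 of 44 in Prmt6KO, against 28.9% of all genes, and for 11 of 44 in WT, against 3.42%, while Igf2bp2KO had 0, against 0.165%. For the 22 the counts were 18 in Prmt6KO, against 29% of protein-coding genes, and 3 in WT, against 3.56%, while Igf2bp2KO had 0, against 0.208%. Gene ends with peaks in both Prmt6KO libraries and neither WT library numbered 11 of 44, against 18.7% of all genes, and 6 of 22, against 18.6% of protein-coding genes. The opposite pattern was found for 0 of 44, against 0.369%, and for 0 of 22, against 0.425%. The window was selected on its peak density, so gene ends within it were likely to hold peaks more often than those of all genes. The higher shares are thus no separate result. Repeated sequence was not matched in the genes that these are set against, and its part in these counts was not tested.

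Single libraries differed in which genes they marked. Of the 22 genes, 22 and 20 had a peak in the Prmt6KO libraries, with 111 and 76 peaks in all, against 12 and 10 in the WT libraries, with 29 and 22 peaks. The shares of all protein-coding genes with a peak in these libraries were 92.4% and 75.4% in Prmt6KO and 55.8% and 48.8% in WT. In WT, 12 of the 22 genes had a peak in 1 library and none in the other. Mup19, Mup4 and Mup12 had peaks in both Prmt6KO libraries and in neither WT library, 3 of 22, against 15.3% of protein-coding genes. Among all 44, 7 did, against 17% of all genes. Peaks in both WT libraries and in neither Prmt6KO library were found for 0 of 22, against 0.157%, and for 0 of 44, against 0.198%.

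**Figure D5:**
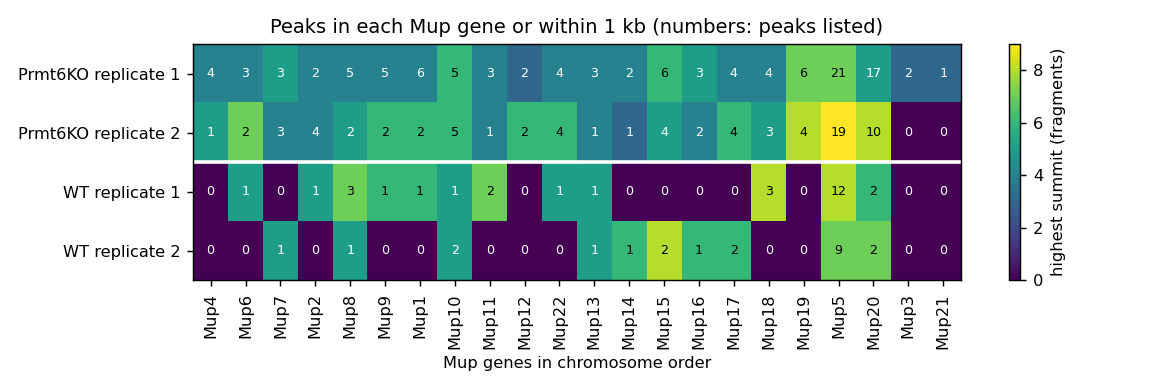
Highest summit in fragments (colour) and number of peaks (digits) in each of the 22 Mup genes or within 1 kb (x axis, in chromosome order) for the Prmt6KO libraries above and the WT libraries below. Mup5 holds the most peaks in all 4 libraries, Mup19 has 6 and 4 peaks in Prmt6KO and 0 in WT, and Mup3 and Mup21 have peaks in Prmt6KO replicate 1 alone.

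Mup19 (chr4:61778324-61782355) is one of the closely related copies and had 6 and 4 peaks in Prmt6KO, against 0 and 0 in WT. Its best peak in Prmt6KO replicate 1, chr4:61777796-61778588, had 7 fragments, a fold enrichment of 4.61 and a q of 0.00970. Its best in Prmt6KO replicate 2, chr4:61778468-61779047, had 8 fragments, a fold enrichment of 4.07 and a q of 0.0304. These peaks overlapped each other at the lower end of the gene, the end away from its promoter, and no WT peak overlapped them. Mup19 was known from earlier results of these lists to be among the genes with Prmt6KO peaks alone, so its values are a description.

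Mup5 (chr4:61831319-61858043), known for expression in salivary glands, was the gene with most peaks among the 22. It had 21 and 19 peaks in Prmt6KO, against 12 and 9 in WT. Its highest summit was 7 and 9 fragments in Prmt6KO and 8 and 7 in WT, so the genotypes overlapped in fragments. They did not overlap in the fold enrichment of these peaks, 4.61 and 4.53 in Prmt6KO, against 3.66 and 3.28 in WT. The highest Prmt6KO replicate 2 peak there, chr4:61840375-61841357, met peaks of 4 fragments in Prmt6KO replicate 1 and of 8 and 7 in WT. A Prmt6KO replicate 1 peak of 7 fragments, chr4:61845067-61846166, met one of 5 fragments in Prmt6KO replicate 2 and none in WT.

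Mup20 (chr4:62011337-62054143) encodes darcin, a male urinary protein that female mice are attracted to. It lies in the right border and had 17 and 10 peaks in Prmt6KO, against 2 and 2 in WT. Its highest summit was 5 and 8 fragments in Prmt6KO and 6 and 7 in WT. Its neighbours Mup3, with 2 and 0 peaks, and Mup21, with 1 and 0, had 3 fragments at most in Prmt6KO and no peak in WT.

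Mup10 (chr4:60578260-60582276), in the left array, had 5 and 5 peaks in Prmt6KO, against 1 and 2 in WT. Its highest summit was 6 and 6 fragments in Prmt6KO, against 5 and 5 in WT. Mup8 had 5 and 2 peaks in Prmt6KO, against 3 and 1 in WT, with highest summits of 4 and 5 fragments in Prmt6KO and 7 and 5 in WT. Mup13 had 3 and 1 peaks in Prmt6KO, against 1 and 1 in WT, with highest summits of 4 and 4 fragments in Prmt6KO and 5 and 5 in WT. Mup5, Mup8, Mup10, Mup13 and Mup20 were the 5 genes with a peak in both WT libraries.

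Mup6, Mup9 and Mup1 shared the next lower fold enrichment in Prmt6KO, 2.88, with Mup22, Mup17 and Mup-ps7. Their WT peaks differed, with 1 peak in replicate 1 alone for Mup6, Mup9, Mup1 and Mup22, 2 in replicate 2 alone for Mup17 and none for Mup-ps7. Mup6 had 3 and 2 peaks in Prmt6KO, with highest summits of 4 and 7 fragments, against 5 in WT replicate 1. Mup9 had 5 and 2 peaks in Prmt6KO, with 4 and 6 fragments, against 6 in WT replicate 1. Mup1 had 6 and 2 peaks in Prmt6KO, also with 4 and 6 fragments, against 6 in WT replicate 1. Mup4, known for expression in nasal and lacrimal glands, had 4 and 1 peaks in Prmt6KO and 0 in WT, and Mup12 had 2 and 2 in Prmt6KO and 0 in WT. Since the array copies are nearly alike, a fragment assigned to 1 of them may have come from another. The border genes Mup4 and Mup6 were less like them, matching Mup19 at 82.9% and 83.2% of shared promoter positions.

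Of the 22 Mup-ps genes, 14 had a peak in both Prmt6KO libraries, against 57.2% of all genes, and 11 in both WT libraries, against 24.6%. RefSeq lists 19 of them as pseudogenes, Mup-ps12 and Mup-ps16 as protein-coding and Mup-ps15 as a long noncoding RNA. Mup-ps12, whose annotated span of 97893 bp takes in Mup16, had 70 and 48 peaks in Prmt6KO, against 22 and 22 in WT, with highest summits of 5 and 9 fragments in Prmt6KO and 10 and 9 in WT. Mup-ps15 had 22 and 18 peaks in Prmt6KO, against 7 and 4 in WT, with 6 and 7 fragments in Prmt6KO and 7 and 7 in WT. Mup-ps16 had 14 and 10 peaks in Prmt6KO, against 7 and 6 in WT, with 7 and 6 fragments in Prmt6KO and 8 and 8 in WT. Mup-ps1 had 26 and 8 peaks in Prmt6KO, against 2 and 6 in WT. The others with peaks in both WT libraries, Mup-ps28, Mup-ps6, Mup-ps8, Mup-ps9, Mup-ps10, Mup-ps11 and Mup-ps14, had 0 to 7 peaks in each Prmt6KO library and 1 to 3 in each WT library.

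Together, spans of all 44 Mup symbols held 24.8% and 24.8% of the window's summits in Prmt6KO, against 22.9% and 26.1% in WT, while covering 17.6% of its bases, or 20.2% without the longest peakless stretch. The 22 genes without the suffix held 9.13% and 9.90% in Prmt6KO, against 8.42% and 6.96% in WT, with 6.17% of bases, or 7.05% without that stretch. Most summits thus lay outside annotated Mup genes.

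The window also holds 9 genes outside the family, 4 of them protein-coding. Snx30 (chr4:59805131-59904740), a sorting nexin gene that crosses the left end, lies mostly in the left flank. Counted over the whole gene, it had 35 and 9 peaks in Prmt6KO, against 4 and 0 in WT. Its highest peak in each list that had one lay outside the window. Zfp37, a zinc finger protein gene, had 6 and 2 in Prmt6KO, against 2 and 1 in WT, with highest summits of 5 and 5 fragments in Prmt6KO and 7 and 7 in WT. Slc31a2, of the copper transporter family, had 6 and 0 in Prmt6KO and 0 in WT, and Slc46a2, a solute carrier gene, had 2 and 0 in Prmt6KO and 0 in WT.

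A minority of Mup promoter windows held a peak, though in Prmt6KO at a share above that of all promoter windows. The cluster was selected on its peak density, so a higher share there is no separate result. Among the 14 windows described above, 4 had a peak in Prmt6KO replicate 1, where 14.1% of all promoter windows had one, and 5 in Prmt6KO replicate 2, where 5.07% had. Mup10, Mup17 and Mup19 had one in both, 3 of 14, against 1.32% of all windows. The peaks there had 4 and 5 fragments for Mup10, 3 and 4 for Mup17 and 3 and 5 for Mup19, where the medians of the whole Mup cluster were 3 and 5. An overlap of 1 bp counted, and the Mup19 peaks, chr4:61781455-61782234 and chr4:61781917-61782239, lay mostly within the gene outside its promoter window. In WT the counts were 0 and 1 of 14, where 1.92% and 1.15% of all windows had a peak, none had one in both libraries, against 0.164% of all windows, and Igf2bp2KO had 0 in both, against 0.0261%.

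The WT promoter peak was at Mup15, chr4:61439697-61440017, in replicate 2, where the summit reached 8 fragments (fold enrichment 3.69). Prmt6KO replicate 1 had 3 fragments there and Prmt6KO replicate 2 none. As the sequences above show, nearly all 50-base words of this promoter window recur in another. Whether its fragments came from Mup15 alone was not tested.

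The array repeats at a regular step, and peaks were found at every phase of it. The 16 array genes of about 4 kb follow each other at a median distance of 80.2 kb, with 11 of 15 distances between 69 and 84 kb. Folded on the higher end of these genes in 4 kb bins over 36 kb either side, the bin that holds the genes had 44 and 31 peaks in Prmt6KO, against 10 and 6 in WT, while the mean per bin was 33.5 and 22.9 in Prmt6KO and 11.1 and 8.78 in WT. The next bin, which lies before the start of minus-strand genes, had 21 and 18 in Prmt6KO, against 3 and 7 in WT. Over the 18 bins, counts ran between 21 and 47 in Prmt6KO replicate 1, 16 and 31 in Prmt6KO replicate 2, 3 and 16 in WT replicate 1 and 1 and 14 in WT replicate 2.

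Igf2bp2KO lists held no peak in the Mup window, and too few anywhere near it to read that as a difference. Both libraries had 0 peaks there, which with 3 peaks as the upper limit of a count of 0 allows up to 1.25 peaks per Mb. Their flanks held 0 and 2 peaks, and their autosome density would give 0.911 and 1.12 peaks in a window of this length. Summits of at least 8 fragments, near the floor of the Igf2bp2KO lists, numbered 0 and 0 in the Igf2bp2KO window, against 26 and 21 in WT. Genome-wide the lists had 1028 and 1248 peaks of that height in Igf2bp2KO, against 14961 and 8654 in WT. Pileup in the Igf2bp2KO lists moved in steps of 0.2772 and 0.3017, so their values had been scaled and their fragments were recovered by division.

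The highest single peaks of the window differed in how many of the Prmt6KO and WT lists shared them. In Prmt6KO replicate 1 the highest was chr4:61719719-61720041, of 8 fragments with a fold enrichment of 5.18 (q = 0.000997), and it overlapped peaks of 5 and 6 fragments in WT and none in Prmt6KO replicate 2. That WT replicate 1 peak, chr4:61719637-61719836, itself met 1 of 5 fragments in Prmt6KO replicate 2. Prmt6KO replicate 2 had 3 peaks of 9 fragments (fold enrichment 4.53, q = 0.00474). They were the Mup5 peak described above, chr4:61510172-61510556 within Mup-ps12 and chr4:61606386-61606836, 1706 bp from Mup-ps14. The Mup-ps12 peak met 4 fragments in Prmt6KO replicate 1 and 8 and 5 in WT, and the peak beside Mup-ps14 met 3 in Prmt6KO replicate 1 and 8 and 0 in WT.

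In WT replicate 1 the highest peaks had 10 fragments (fold enrichment 4.47, q = 0.00324), at chr4:60725923-60726192, 11357 bp from Mup12, and at chr4:61456068-61456333 within Mup-ps12. The first met 0 and 0 fragments in Prmt6KO and 5 in WT replicate 2, and the second 0 and 5 in Prmt6KO and 7 in WT replicate 2. The highest of all, with 11 fragments (fold enrichment 4.92, q = 0.000497), was chr4:60403915-60404296 in WT replicate 2, and no other list had a peak there. Of the 16 Prmt6KO peaks with q at or below 0.05 in the window, 8 overlapped a peak of the other Prmt6KO list. They stood at 7 sites, since both libraries' peaks at Mup19 were among them. All 7 sites were in the right array, and 2 of them, at Mup19 and within Mup5, met no WT peak in either library. The right array held 126 of the 217 and 126 of the 215 Prmt6KO window peaks that overlapped the other Prmt6KO list. Meeting no WT peak was usual, since 12.1% and 7.45% of Prmt6KO replicate 1 window peaks overlapped WT replicates 1 and 2. In Prmt6KO replicate 2 these shares were 15.9% and 10.4%. The sites not yet given were chr4:61820679-61821947, 10244 bp from Mup5, with 5 and 8 fragments in Prmt6KO and 8 and 0 in WT, and chr4:61717048-61717548, 14667 bp from Mup-ps15, with 7 and 6 in Prmt6KO and 6 and 5 in WT.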

How the data were processed

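H3R2me2a ChIP-seq was deposited as 1 peak list per library with a companion table, on mm10. Per the submitters' processing notes, bcl2fastq 2.17, Trim Galore, HISAT2, MACS2 2.1.0 and bedtools were used; their settings are not given in the sources used here. The deposited lists give each peak's fold enrichment, its −log10 p-value and −log10 q-value, and its pileup (signal at the summit), all computed by the authors' peak caller, per the file headers. Read depth is not in these files, so precision is given as counting intervals over peaks, which cover counting error only.

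Computed here, with Python 3.11.15, pandas 2.3.3, NumPy 2.4.6, SciPy 1.17.1 and Biopython 1.88, were peaks per Mb by peak start, summit heights in fragments (pileup divided by its smallest step), spacing of summits, overlap of at least 1 bp and Wilson 95% intervals. Genes and promoters came from RefSeq GRCm38.p6 tables, matched by symbol; a gene counted as holding a peak where one lay in it or within 1 kb. Promoters were aligned globally, with and without end gaps counted, and TATAA was also sought on the other strand, where either strand gave 13 of 14 Mup windows and 25.5% of all windows. Genes given with values were Mup19, the 10 Mup genes with the highest lower fold enrichment over the Prmt6KO libraries (6 genes tied for the last 3 places, broken by fold enrichment in replicate 1, then position), Mup genes with peaks in both WT libraries, and non-Mup protein-coding genes; Mup3, Mup4, Mup12 and Mup21 were named after their values were seen. Peaks given were the highest of each library and those with q at or below 0.05 in a Prmt6KO list that overlapped the other, and those in all 4 lists were picked after their values were seen. Members and lists were chosen with earlier results of these data known, so no test was run. Counting steps were tested on simulated peaks. Alternatives covered thresholds, flanks, overlap, list length, single libraries and a replicate block.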

Additional observations from a re-analysis of the deposited data

How the results depend on the processing

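Of 96 alternatives over 10 measures, 69 kept the direction and stayed within the spread set for each measure, 19 of these by a factor of more than 1.5, while 17 moved it further and 10 turned its sign. Some of the 69 equalled the main value by construction. They were each replicate block and the density measures without the longest peakless stretch. The strong-peak measure with lists of equal length or peaks of at least 5 fragments was another such case. The log2 density ratio of window to flanks, −0.42 for Prmt6KO minus WT, was −0.51 to −0.33 without single libraries, −0.26 with lists of equal length, −0.20 with peaks of at least 5 fragments and −0.13 with fold enrichment of at least 4, and its sign turned to 0.088 at q of 0.05 or below. That last value, taken as its own measure of strong peaks, was −0.14 against the left flank alone, 0.31 against the right, 0.65 with flanks of 5 Mb and ran between −1.22 without WT replicate 1 and 1.40 without WT replicate 2, so it rests on single WT libraries. The difference in log2 spacing, 0.53, was 0.37 in lists of equal length, 0.076 with peaks of at least 5 fragments, −0.31 with fold enrichment of at least 4 and −1.10 at q of 0.05 or below. The values at fold enrichment of at least 4 and at that q rest on 3 and 8 window peaks in the WT lists. Over all listed peaks the spacing difference was 0.42 to 0.64 without single libraries. The median height difference of −2 fragments was −3 to −1 without single libraries, −1 with peaks of at least 5 fragments and −0.75 with lists of equal length. The log2 height over flanks, −0.0063, was 0.0072 with flanks of 5 Mb, 0.0154 with chromosomes 1 to 19 as the comparison, and −0.0239 (without WT replicate 1) to 0.0113 (without WT replicate 2) without single libraries; it was 0.0020 without Prmt6KO replicate 1. The share of summits in Mup genes, 0.309 percentage points apart, was 13.75 with fold enrichment of at least 4, 8.04 at q of 0.05 or below, 2.44 with lists of equal length, and −1.29 (without WT replicate 1) to 1.91 (without WT replicate 2) without single libraries. The excess of replicate overlap in the window, 12.4 percentage points in Prmt6KO, was 8.06 with fold enrichment of at least 4, 7.74 with at least 5 fragments and 6.42 with overlap of at least 50% of a peak. In WT, 11.4 points became 0 with fold enrichment of at least 4, 0 at q of 0.05 or below and 7.01 with overlap of at least 50% of a peak. Mup genes with peaks in both Prmt6KO libraries, 34, became 2 with fold enrichment of at least 4, 2 at q of 0.05 or below and 10 with at least 5 fragments; in WT, 16 stayed 16 with at least 5 fragments, above Prmt6KO, and became 1 with fold enrichment of at least 4 and 1 at q of 0.05 or below. Fewer peaks enter under each stricter threshold; otherwise the cause was not tested. Leaving out the longest peakless stretch, an alternative chosen after seeing the data, gave −0.42 for density.

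The same replicate numbers occur in Prmt6KO and WT, but nothing in the labels pairs the libraries. Differences between replicates 1 and 2 correlated between the genotypes over 2414 bins of 1 Mb (r = 0.534), with 2 pairs only. With a replicate block the density difference was −0.42, equal to the unpaired value by construction. Igf2bp2KO gave no relative density under any setting, since its window held 0 peaks. The low summits, shared sequence between copies and unequal list lengths limit every comparison of genotypes.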
